A study of Mus musculus with 5 samples.

Results

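The genes that encode Rab GTPases were examined in chromatin of the mouse fetal testis. Membership was set by symbol and by no measured value, as the protein-coding genes of the RefSeq annotation of GRCm38.p6 (the coordinates of mm10) named Rab followed by a number and, where present, a letter, and 59 of 21887 protein-coding genes met this rule. CUT&RUN, which cuts out the DNA bound by an antibody's target with a tethered nuclease, was done against CREB on 3 embryonic (E) stages, E13.5, E16.5 and finally E18.5, and with an antibody labelled H3K4 on the last of them. The material was whole male gonads, dissociated into single cells, with no genotype, strain or treatment named in the labels. Each antibody and stage has 1 library, so none of the values has a replicate, and an IgG library was not analysed here. A gene counts below as having a peak if any interval of a list overlapped the 1000 bp on either side of the start or the end of the gene.

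Rab proteins are small GTPases that mark membranes and direct vesicle traffic. In the GTP-bound form each Rab recruits effectors, such as tethers and motor adaptors, to its own compartment. Exchange factors (GEFs) load GTP, GTPase-activating proteins (GAPs) end the active state, and a GDP dissociation inhibitor (GDI) carries the inactive Rab through the cytosol. CREB is a transcription factor that responds to cAMP signalling and binds the cAMP response element (CRE), whose full form reads TGACGTCA and whose core reads TGACG. Methylated H3K4 marks active promoters and enhancers, but the labels do not give the methylation state.

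The peak lists held 21211 H3K4 peaks and, in stage order, 862, 3528 and 2957 CREB peaks. They give positions only, with nearly constant widths of 150 bp (CREB, E13.5), 630 bp (CREB, E16.5), 160 bp (CREB, E18.5) and 210 bp (H3K4). Read depth is unknown, so a gene without a listed peak is not shown to lack the protein. Of marker genes for the tissue, 6 of 10 genes chosen for Sertoli, Leydig and germ cells (Sox9, Amh, Dhh, Star, Cyp11a1 and Dazl, but not Insl3, Hsd3b1, Ddx4 or Dppa3) had an H3K4 peak at an end, as did 1 of 4 liver and muscle genes (Apoa1, but not Alb, Myod1 or Ckm). With H3K4 at 52.7% of all protein-coding genes, the marker count is near the background and says little of the tissue. None of these genes had a CREB peak at an end in any list.

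The promoters below belong to Rab genes that had CREB in every list and at least 1 CRE core within the RefSeq window of 300 bases (build GRCm38.p6), which runs from 250 bases before the gene start to 50 after it. Capitals mark the CRE core on either strand (TGACG or CGTCA) and the full CRE. Each is printed 5′ to 3′ on the strand of its gene. Rab8a lies at chr8:72160950-72161249 (plus strand), Rab3a at chr8:70754453-70754752 (plus), Rab5a at chr17:53478984-53479283 (plus), Rab11b at chr17:33760437-33760736 (minus) and Rab40c at chr17:25919665-25919964 (minus).
Rab8a: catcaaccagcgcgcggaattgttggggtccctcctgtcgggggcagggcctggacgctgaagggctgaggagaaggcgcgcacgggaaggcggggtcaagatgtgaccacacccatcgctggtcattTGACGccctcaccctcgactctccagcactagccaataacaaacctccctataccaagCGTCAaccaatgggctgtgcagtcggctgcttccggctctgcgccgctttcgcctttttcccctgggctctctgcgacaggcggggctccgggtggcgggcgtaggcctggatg
Rab3a: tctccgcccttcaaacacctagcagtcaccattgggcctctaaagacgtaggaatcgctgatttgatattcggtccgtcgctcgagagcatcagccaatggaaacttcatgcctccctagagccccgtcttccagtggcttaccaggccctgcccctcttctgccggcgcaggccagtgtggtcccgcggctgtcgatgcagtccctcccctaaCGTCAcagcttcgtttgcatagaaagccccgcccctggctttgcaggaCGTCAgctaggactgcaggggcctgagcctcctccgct
Rab5a: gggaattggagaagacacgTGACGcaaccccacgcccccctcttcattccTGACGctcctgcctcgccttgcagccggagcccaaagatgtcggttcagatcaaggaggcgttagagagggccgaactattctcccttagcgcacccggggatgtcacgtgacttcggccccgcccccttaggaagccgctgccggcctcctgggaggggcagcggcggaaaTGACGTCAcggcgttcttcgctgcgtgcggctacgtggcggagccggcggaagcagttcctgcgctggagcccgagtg
Rab11b: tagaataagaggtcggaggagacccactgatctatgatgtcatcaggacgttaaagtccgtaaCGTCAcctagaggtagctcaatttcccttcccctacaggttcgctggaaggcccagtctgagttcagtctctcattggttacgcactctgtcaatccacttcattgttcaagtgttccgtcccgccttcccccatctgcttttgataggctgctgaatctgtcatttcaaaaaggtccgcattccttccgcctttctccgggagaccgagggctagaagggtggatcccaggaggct
Rab40c: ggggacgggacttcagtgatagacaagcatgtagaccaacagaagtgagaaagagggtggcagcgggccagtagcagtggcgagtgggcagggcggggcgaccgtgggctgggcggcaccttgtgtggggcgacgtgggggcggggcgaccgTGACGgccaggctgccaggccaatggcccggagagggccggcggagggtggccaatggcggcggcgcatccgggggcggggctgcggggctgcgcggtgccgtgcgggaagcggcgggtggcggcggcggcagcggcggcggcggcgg

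CREB peaks lay at the ends of 21 of the 59 Rab genes (35.6%, with a 95% Wilson interval of 24.6 to 48.3), against 16.7% of all protein-coding genes. All 21 also had an H3K4 peak at an end, as did 3470 of the 3655 protein-coding genes with CREB at any stage. The E13.5 list gave 7 Rab genes, each later CREB list gave 20, and the H3K4 list gave 52. In shares, 11.9% of Rab genes (5.87 to 22.5) carried CREB at E13.5, against 3.93% of all protein-coding genes. At E16.5 the share was 33.9% (23.1 to 46.6) for Rab genes and 14.9% for all. At E18.5 it was again 33.9% (23.1 to 46.6) for Rab genes, against 12.9%. H3K4 peaks were found at 88.1% of Rab genes (77.5 to 94.1) and 52.7% of all protein-coding genes. The Rab share was thus 3.02, 2.27 and 2.63 times that of all genes for CREB and 1.67 times for H3K4. The intervals cover counting error only, genes are not replicates of a condition, and with 1 library a stage no test between stages was made.

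**Figure D1:**
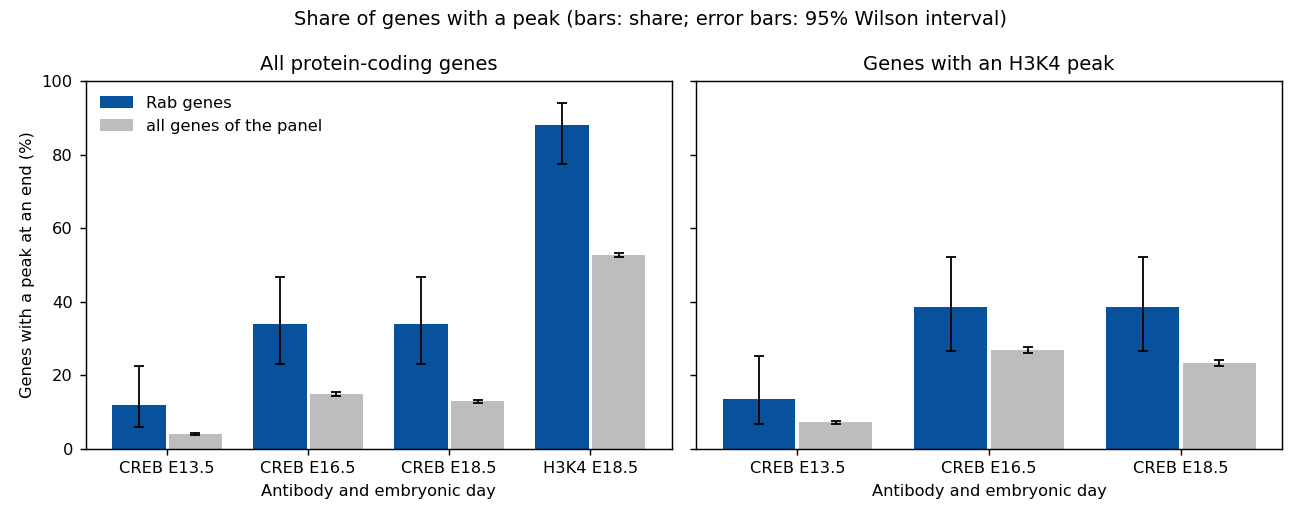
Share of genes with a peak at an end (vertical axis, percent) for Rab genes (blue) and all genes of the panel (grey), by antibody and embryonic day. The left panel uses the 59 Rab genes and all 21887 protein-coding genes, the right panel the 52 and 11532 with an H3K4 peak. Error bars are 95% Wilson intervals, and the blue bars stand above the grey ones throughout, by less in the right panel.

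Among genes with an H3K4 peak the difference between the shares of Rab genes and of all genes was smaller. Of the 52 such Rab genes, 7 (interval 6.68% to 25.3%) had CREB at E13.5, against 7.19% of the 11532 protein-coding genes with H3K4. The shares were 38.5% (26.5 to 52.0) and 27% at E16.5, and 38.5% (26.5 to 52.0) and 23.4% at E18.5. The interval for Rab genes included the share of all H3K4 genes at E13.5 and E16.5 and lay above it at E18.5. Among genes with H3K4 the Rab share was 1.87, 1.43 and 1.64 times that of all genes in stage order, each over 1.5 times below the ratio without this restriction. For CREB at any stage the shares were 40.4% of Rab genes with H3K4 (28.2 to 53.9) and 30.1% of all such genes, which lies within the interval.

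A group of 7 Rab genes had CREB at every stage. Rab11b, Rab26, Rab3a, Rab40c, Rab4b, Rab5a and Rab8a made up all 7 Rab genes of the E13.5 list, and each was also in both later lists (11.9% of Rab genes and 3.83% of all protein-coding genes). Among genes with H3K4, CREB at every stage was found at 7 of 52 Rab genes and 7.01% of all. A further 12 genes had CREB at E16.5 and E18.5, namely Rab11a, Rab13, Rab1a, Rab28, Rab2b, Rab30, Rab33b, Rab40b, Rab5b, Rab5c, Rab6a and Rab8b. Rab22a was listed at E16.5 alone and Rab7 at E18.5 alone. No peak of any CREB list touched an end of the other 38 genes.

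**Figure D2:**
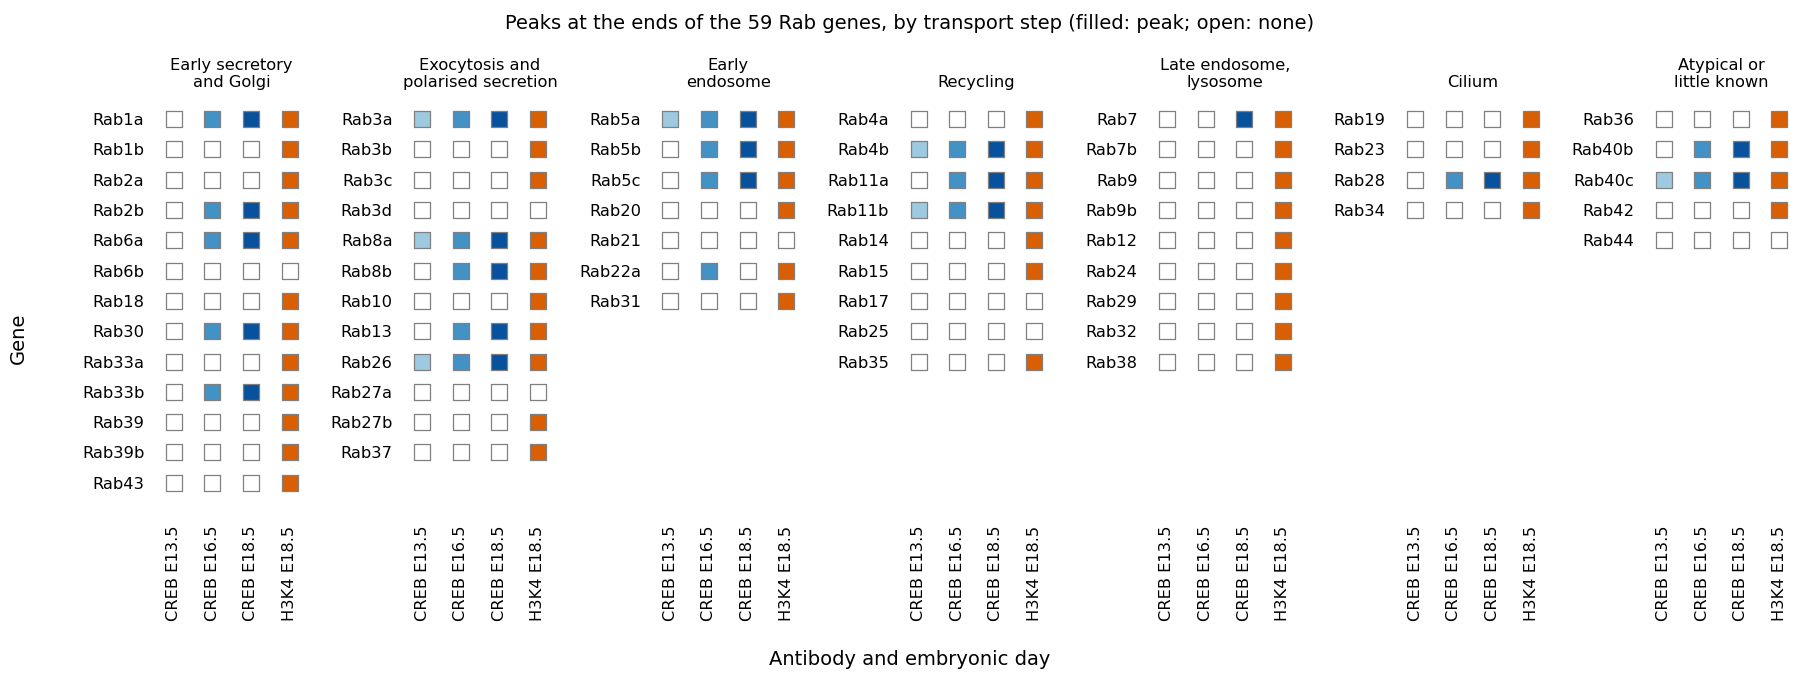
Peaks at the ends of the 59 Rab genes, in panels by the transport step for which each is best known. Columns within a panel are the CREB lists in stage order and then H3K4, and a filled square is a gene with a peak. The 7 genes filled in all CREB columns are spread over 4 panels, and the panel of late endosome and lysosome holds a single CREB square, at Rab7. Over all protein-coding genes, 16.7% had CREB at any stage.

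Each transport step can be set beside the CREB shares of all protein-coding genes, 3.93%, 14.9% and 12.9% in stage order. Rabs of exocytosis and polarised secretion had CREB at 3 of 12 genes at E13.5 and at 5 at each later stage. The 3 had it at every stage and include Rab26, whose peak lies nearer to another gene. Rab8a, which carries cargo from the Golgi to the plasma membrane and the cilium, spans chr8:72161200-72181366. Its CREB peaks lay at chr8:72161073-72161222 in the first list, 72160854-72161483 in the second and 72161066-72161225 in the third, with midpoints 52.5, 31.5 and 54.5 bp before the gene start. These peaks stood in positions 41, 58 and 16 of their lists, whose order the sources used here do not explain. Rab3a, which serves regulated exocytosis, spans chr8:70754703-70758608 and had peaks at chr8:70754545-70754694, 70754296-70754925 and 70754527-70754686. In stage order, the midpoints were 83.5, 92.5 and 96.5 bp before the start. At both genes the midpoints of the 3 stages lay within 23 bp of each other.

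Rab26, a Rab of secretory granules, entered the count through a peak that is nearer to another gene. The gene spans chr17:24529054-24533747, and its peaks lay, in stage order, at chr17:24527962-24528111, 24527723-24528352 and 24527980-24528139. The peak edge was 943, 702 and 915 bp from the Rab26 end, the farthest of any Rab gene counted in each CREB list. The same midpoints were 98.5, 99.5 and 121.5 bp from the start of Traf7, which encodes a ubiquitin ligase. Without Rab26 the CREB counts were 6, 19 and 19 of 58. The nearest Rab genes outside the 1000 bp limit were Rab1b at E13.5 and E18.5 (10719 and 10745 bp) and Rab21 at E16.5 (1316 bp).

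Rab8b, a close relative of Rab8a, and Rab13, known from tight junction traffic, had CREB at E16.5 and E18.5 only. The midpoints at Rab8b were 116.5 and 110.5 bp before the start. At Rab13 the midpoint was shortly before the start at E16.5 and 14.5 bp after it at E18.5, a shift of 31 bp. The other 7 genes of this step had no CREB peak at an end. They include Rab10, which moves Glut4 vesicles, Rab27a and Rab27b of secretory granules, Rab37, and the Rab3a relatives Rab3b, Rab3c and Rab3d. Of these, Rab3d and Rab27a also had no H3K4 peak at an end.

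Early endosome Rabs had CREB at 1, 4 and 3 of 7 genes over the 3 stages. The whole Rab5 group, which drives fusion of early endosomes, carried it. Rab5a spans chr17:53479234-53507678 and had peaks at chr17:53479036-53479185, 53478795-53479424 and 53479052-53479211, with midpoints 123.5, 124.5 and 102.5 bp before the start. At Rab5b the midpoints lay 158.5 and 197.5 bp before the nearest start at E16.5 and E18.5. At Rab5c they lay 406.5 and 73.5 bp before it, so that the peaks of E16.5 and E18.5 overlapped but their midpoints were 333 bp apart, the widest gap at any Rab gene with overlapping peaks. Rab22a, of early endosomes, had a peak 188.5 bp before its start at E16.5 alone, and the nearest E18.5 midpoint was 659563 bp away. Rab20, Rab21 and Rab31 had none at an end.

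Rab21, which acts in integrin endocytosis, shows a limit of the gene-end rule. Its promoter entry places a start at position 115315591 on chromosome 10, inside the annotated gene (chr10:115289862-115317419). The E16.5 CREB peak at chr10:115315474-115316103 covered this start, and an H3K4 peak at 115315599-115315808 began 8 bp from it. Both were left out by the rule, which uses only the outer ends of a gene, and Rab21 was singled out after its values were seen. Rab21 was also the only Rab gene with a CREB peak in the gene body away from its ends, in any of the 3 lists.

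Among 9 recycling Rabs, CREB was found at 2 genes at E13.5 and 3 at both later stages. Rab11b, of the recycling endosome, spans chr17:33742484-33760486, with peaks at chr17:33760509-33760658, 33760221-33760850 and 33760538-33760697 and midpoints 97.5, 49.5 and 131.5 bp before the start. Its relative Rab11a had midpoints 43.5 and 104.5 bp before the start at E16.5 and E18.5. Rab4b, of fast recycling, spans chr7:27168433-27178883 and had peaks at chr7:27178919-27179068, 27178753-27179382 and 27178958-27179117, with midpoints 110.5, 184.5 and 154.5 bp before the start. At E18.5 Rab4b had a second peak (chr7:27178465-27178624) 338.5 bp inside the gene, which overlapped no CREB peak of another stage. No other Rab gene had 2 CREB peaks in a list. Rab4a, Rab14, Rab15, Rab17, Rab25 and Rab35 had none, and Rab17 and Rab25, both known from epithelia, also lacked H3K4.

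Early secretory and Golgi Rabs, the largest step with 13 genes, had no CREB peak at E13.5 and 5 genes with CREB at both later stages. These were Rab1a of ER to Golgi traffic, Rab2b and Rab6a of the Golgi, Rab30, and Rab33b, which acts at the Golgi and in autophagosome formation. In these lists the midpoints were 92.5 and 163.5 bp before the start at Rab1a, 21.5 and 71.5 bp before it at Rab2b, and 44.5 and 60.5 bp before it at Rab6a. At Rab33b they lay 93.5 and 69.5 bp after the start. At Rab30 they were 33.5 and 87.5 bp outside the gene end. Rab1b, Rab2a, Rab6b, Rab18, Rab33a, Rab39, Rab39b and Rab43 had none.

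Late endosome and lysosome Rabs had an H3K4 peak at all 9 genes and CREB at 1. Over all protein-coding genes, 52.7% had H3K4 and 16.7% had CREB at any stage, so 1 of 9 is not shown to be a low share. Rab7, which acts at late endosomes and lysosomes, had an E18.5 peak at chr6:88045221-88045380, 30.5 bp before the nearest start, and the nearest E16.5 midpoint was 29904 bp away. Rab7b, Rab9, Rab9b, Rab12, Rab24, Rab29, Rab32 and Rab38 had no CREB peak at an end in any list. This group includes Rab32 and Rab38 of melanosomes and Rab29, known for recruiting the kinase Lrrk2. The difference between steps was not tested, since each step has few genes and each stage 1 library.

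Of 4 cilium Rabs, Rab28 had CREB, with midpoints 134.5 and 142.5 bp before the nearest start at E16.5 and E18.5. Rab23, which restrains Hedgehog signalling, Rab19 and Rab34 had H3K4 but no CREB. Among 5 atypical or little-known Rabs, both genes of the SOCS box type, which link to ubiquitin ligases, carried CREB. Rab40c spans chr17:25882114-25919714 and had peaks at chr17:25920031-25920180, 25919830-25920459 and 25919986-25920145. Its midpoints were 391.5, 430.5 and 351.5 bp before the start, farther than at any other Rab gene with CREB at every stage and a known start. At Rab40b they lay 140.5 and 214.5 bp before the start at E16.5 and E18.5. Rab36, Rab42 and Rab44 had none.

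Relatives that share a number did not always have the same call. CREB lay at 21 of the 59 Rab genes. Whether the groups split more or less often than this share alone would give was not tested. In 14 such groups, with 31 genes, 4 groups had CREB at every member (Rab5, Rab8, Rab11 and Rab40), 3 had it at none (Rab9, Rab27 and Rab39), and 7 had it at some members only. Of the 7 split groups all but Rab3 are pairs. CREB was at Rab1a and not Rab1b, Rab2b and not Rab2a, Rab3a and not Rab3b, Rab3c or Rab3d, Rab4b and not Rab4a, Rab6a and not Rab6b, Rab7 and not Rab7b, and Rab33b and not Rab33a. In each of the 4 groups with CREB throughout, 1 member had it at all 3 stages and the others at E16.5 and E18.5. For contrast with Rab5a above, the promoters of its relatives are printed with the same marks, Rab5b at chr10:128696219-128696518 (minus strand) and Rab5c at chr11:100738166-100738465 (minus strand). They were picked after the values were seen. Each holds 1 CRE core and no full CRE, whereas Rab5a holds 4 matches to the core, of which 2 form its full CRE.
Rab5b: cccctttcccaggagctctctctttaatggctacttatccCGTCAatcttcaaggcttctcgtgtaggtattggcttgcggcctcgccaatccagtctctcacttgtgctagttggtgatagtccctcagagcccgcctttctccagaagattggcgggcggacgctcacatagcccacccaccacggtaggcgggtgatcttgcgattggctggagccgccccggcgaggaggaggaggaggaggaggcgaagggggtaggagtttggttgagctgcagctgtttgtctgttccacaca
Rab5c: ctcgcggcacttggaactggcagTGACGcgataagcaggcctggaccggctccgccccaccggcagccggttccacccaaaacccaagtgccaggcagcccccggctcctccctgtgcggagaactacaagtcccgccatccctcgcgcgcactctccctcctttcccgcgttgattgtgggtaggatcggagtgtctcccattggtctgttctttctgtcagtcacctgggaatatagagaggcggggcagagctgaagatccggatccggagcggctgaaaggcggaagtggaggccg

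Where the promoter table gives the strand, every CREB peak at a Rab gene lay at the start of the gene and none at its 3′ end. This covers 6, 18 and 19 peaks in stage order, and the peaks at Rab26 and Rab30 have no strand there. Before the start lay 6, 17 and 16 of them, with median midpoints 104, 104.5 and 102.5 bp before it. Within 250 bp of a start lay 5, 16 and 17. The median positions of the 3 stages thus lay within a few bases of each other, although the E16.5 peaks are wider. These positions were not counted over all protein-coding genes, so they are not shown to be particular to Rab genes.

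**Figure D3:**
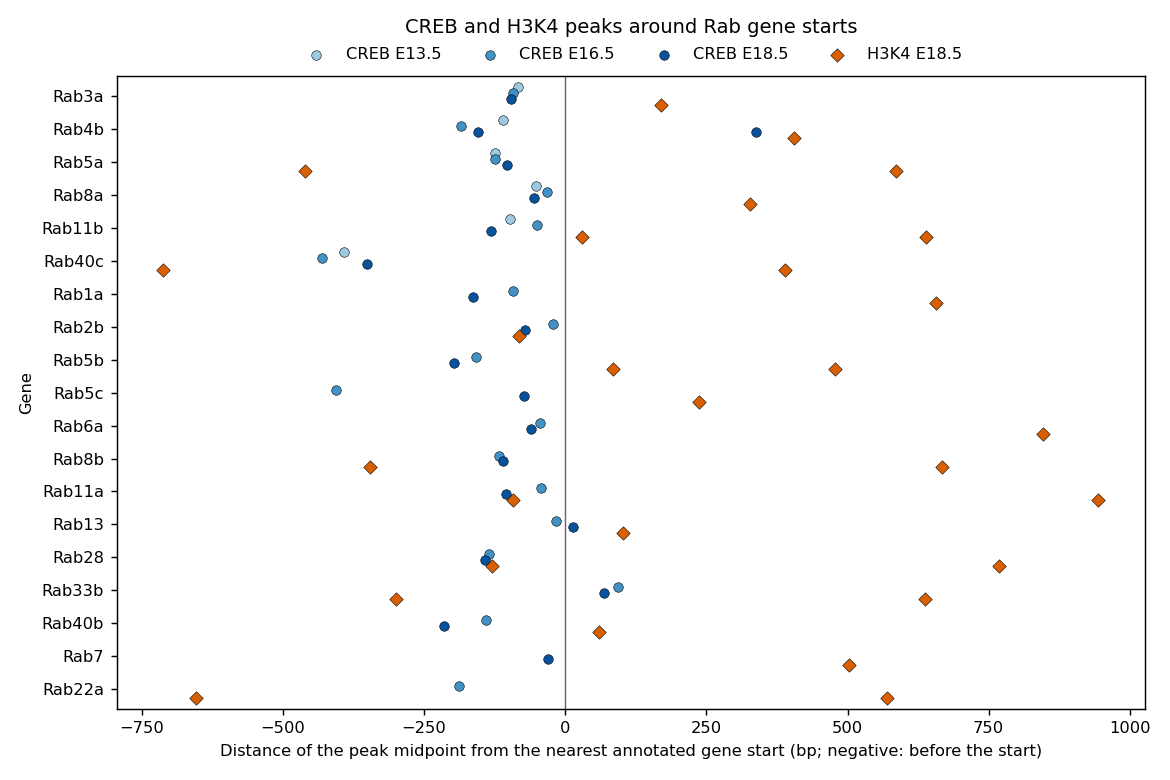
Distance of each peak midpoint from the nearest annotated start of its gene (horizontal axis, bp, negative before the start) at the 19 Rab genes with CREB and a known strand. Circles are CREB, darker with stage, diamonds are H3K4, and peaks beyond the limits of the axis are not drawn. Most circles lie shortly before 0, and most diamonds lie to the right of the circles, inside the gene.

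Peaks of different stages at a Rab gene mostly overlapped. All 7 gene-end peaks of E13.5 overlapped a peak of both later lists, and over all protein-coding genes 838 of the 861 with CREB at E13.5 had it at every stage. Of the 20 at E16.5, 19 overlapped an E18.5 peak, and of the 21 at E18.5, 19 overlapped an E16.5 peak. The exceptions were Rab22a at E16.5, and Rab7 and the second Rab4b peak at E18.5. Over all protein-coding genes, 3271 had CREB at E16.5, 2817 at E18.5 and 3655 at any stage. Most genes of either later list were thus in both, and such sharing is not particular to Rab genes. When both later lists were shortened to their first 862 entries, the length of the E13.5 list, 8 Rab genes remained at E16.5 and 11 at E18.5. All 7 genes with CREB at every stage were among them, together with Rab6a at both later stages and Rab11a, Rab30 and Rab5b at E18.5. With these shortened lists, 4.36% of all protein-coding genes had CREB at E16.5, 4.29% at E18.5 and 2.63% at every stage. The order of the lists is not explained, so the first entries are not shown to be the strongest.

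In the E18.5 lists, H3K4 midpoints near Rab gene starts lay mostly on the gene side of the CREB midpoint. At this stage, which both antibodies share, an H3K4 midpoint lay within 1000 bp of all 21 Rab gene-end CREB peaks, against 93.5% of CREB peaks at the ends of protein-coding genes. The median distance was 283 bp at Rab genes (10 to 907) and 266 bp over all. Direct overlap was found for 6 of 21 (28.6%) at Rab genes and 34.4% over all. The wider E16.5 CREB peaks overlapped an E18.5 H3K4 peak at 14 of 20 Rab genes (70%) and at 72.0% over all. The 19 E18.5 CREB peaks with a known strand include both Rab4b peaks. Of the 19, 14 had an H3K4 midpoint within 1000 bp only after the CREB midpoint, toward the gene. It lay only before the CREB midpoint at 1 peak and on both sides at 4. Rab2b had it before, at 10 bp, and Rab33b, Rab8b, Rab40c and Rab5a on both sides. At Rab11a and Rab28 the CREB and H3K4 peaks overlapped, with midpoints 12 bp apart. At Rab6a, Rab1a and Rab7 the H3K4 midpoint lay 907, 820 and 787 bp downstream. The sides were not counted over all protein-coding genes, so they are not shown to be particular to Rab genes.

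The number of H3K4 peaks at the ends was counted in Rab genes with and without CREB. It was 2 at 11 of the 21 genes with CREB and at 8 of the 38 without, and it was 1 at 10 and 23 genes. The other 7 of the 38 had no H3K4 peak at an end. The difference was not tested, and the same count was not made over all protein-coding genes, so it is not shown to be particular to Rab genes. All 7 Rab genes with no H3K4 peak at an end (Rab17, Rab25, Rab3d, Rab27a, Rab6b, Rab21 and Rab44) were without CREB. CREB without H3K4 was rare in general, since 3470 of the 3655 protein-coding genes with CREB at any stage had H3K4. Rab21 is among the 7 only by the gene-end rule. Its inner start lay under an E16.5 CREB peak and 8 bp from an H3K4 peak. Gene length was much alike, with a median of 23213 bp in Rab genes with CREB (3906 to 102899) and 22991 bp in those without (2758 to 226810). Among the 38 Rab genes without CREB the median distance from a gene end to the nearest CREB midpoint was, in stage order, 1165106, 74850 and 143387 bp.

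Some peaks at Rab genes cannot be assigned to the Rab gene alone. At E18.5, 6 of the 20 Rab genes with CREB (30%; 14.5 to 51.9) had a peak that also lay at an end of another protein-coding gene, against 38.7% of all 2817 genes with CREB, and in the earlier lists the numbers were 2 of 7 and 6 of 20. Rab13 shares its peak with Rps27, a ribosomal protein gene read in the opposite direction, whose start was 50.5 and 81.5 bp from the midpoint at E16.5 and E18.5. Rab6a shares it with Mrpl48, a mitochondrial ribosomal protein gene on the other strand, 80.5 and 96.5 bp from its start. Rab2b and Tox4 overlap head to head, and the midpoints were 270.5 and 320.5 bp from the start of Tox4. At Rab4b the other gene was Mia, on the same strand and with its start 2111.5 bp from the E18.5 midpoint. At Rab5b it was Pmel, whose end was 577.5 bp from the E18.5 midpoint, and at Rab26 it was Traf7.

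The printed promoters can be read against the peaks. In the Rab8a promoter both CRE cores, which begin 122 and 64 bases before the start, lay inside the peak of every stage, and the nearer was 9.5, 30.5 and 7.5 bp from the midpoint in stage order. In the Rab3a promoter the core beginning 36 bases before the start lay inside all 3 peaks, and the core after the start inside the E16.5 peak only. The full CRE of Rab5a begins 28 bases before the start. Its centre was 99, 100 and 78 bp from the midpoints, inside the wide E16.5 peak, outside the E13.5 peak and across the edge of the E18.5 peak. This promoter also holds E-box letters (CACGTG) inside all 3 peaks. The Rab11b core lay inside the E16.5 and E18.5 peaks. The core in the Rab40c window lay outside all 3 peaks, which were centred beyond the window. Rab4b, with CREB at every stage, has no core in its window.

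Promoter windows were found for 48 of the 59 Rab genes; Rab2a, Rab4a, Rab7b, Rab18, Rab26, Rab27b, Rab30, Rab36, Rab37, Rab38 and Rab44 are not in the table. The letters of 4 motifs were searched on both strands: the full CRE (TGACGTCA), its core (TGACG, which a full CRE holds on each strand), the CCAAT box (CCAAT) and the E-box (CACGTG). The CRE core was in 13 of 19 Rab genes with CREB at any stage (68.4%; 46.0 to 84.6) and in 13 of 29 without (44.8%; 28.4 to 62.5). The 29 include Rab21, whose start lies under an E16.5 CREB peak that the gene-end rule leaves out, and whose window holds 2 CRE cores, an E-box and no CCAAT letters. Over all protein-coding genes these shares were 56.9% with CREB and 19.7% without. The full CRE was rare, at 1 of 19 Rab genes with CREB (Rab5a) and 1 of 29 without (Rab25), and at 9.90% and 0.984% of all protein-coding genes with and without CREB. Of all 32851 windows in the table, 20.8% hold the core and 1.79% the full CRE.

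The CCAAT box, the letters bound by the factor NF-Y, had the widest gap of the 4 motifs between Rab genes with and without CREB, a gap that was not tested. It was in 17 of 19 Rab genes with CREB (89.5%; 68.6 to 97.1) and in 9 of 29 without (31.0%; 17.3 to 49.2). Over all protein-coding genes it was in 52.3% (50.5 to 54.0) of those with CREB and 40.2% of those without, and in 37.4% of all windows. All 6 Rab genes with CREB at every stage and a window held it, against 57.9% (54.3 to 61.5) of all such protein-coding genes. The CCAAT letters lay inside the CREB peak at 4 of 6 Rab genes with these letters near a peak at E13.5, and at 13 and 11 of 15 in the later lists. At most of these genes the wide E16.5 peak spans the whole promoter window, the only stretch searched. Letters anywhere in such a window fall inside the peak, so the E16.5 count does not show that they lie close to CREB. The same count was not made over all protein-coding genes at any stage, so it is not shown to be particular to Rab genes. At Rab8a 2 CCAAT boxes lay 3.5 and 35.5 bp from the E13.5 midpoint, and at Rab4b the nearest was 3.5 bp from it. At Rab13 the only CCAAT letters were in a second promoter window, at least 6824.5 bp from the midpoints. The E-box was in 1 of 19 Rab genes with CREB (5.26%) and 5 of 29 without (17.2%), against 11.6% and 8.34% over all, and in 7.15% of all windows. The windows of Rab genes with CREB had a median G+C content of 63%, those of Rab genes without it 59.5%, and those of all protein-coding genes with CREB 61%. A match is a description of letters and not a binding site, and the part of base composition was not tested.

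**Figure D4:**
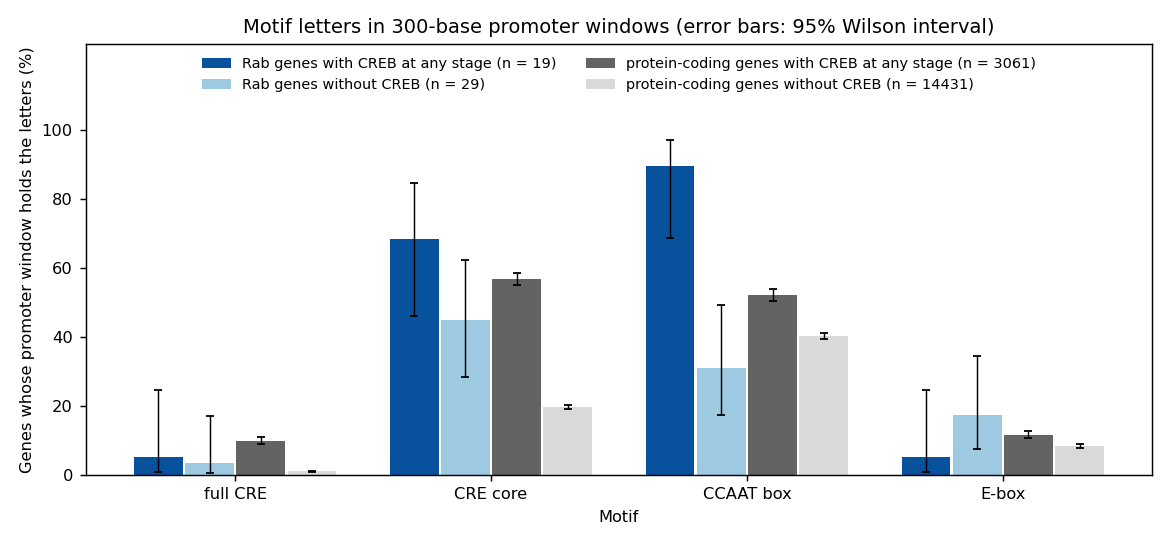
Share of genes whose 300-base promoter window holds each motif (vertical axis, percent), for Rab genes with and without CREB at any stage (dark and light blue) and all protein-coding genes with and without CREB (dark and light grey). Error bars are 95% Wilson intervals. The dark blue bar of the CCAAT box, at 89.5%, stands above the other 3 bars of that motif.

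Genes that control or read Rab proteins were counted by the same rule. Over 118 such genes, CREB shares in stage order were 4.24% (1.82 to 9.54), 19.5% (13.4 to 27.6) and 17.8% (11.9 to 25.7), and 78.0% had H3K4. The shares of all protein-coding genes (3.93%, 14.9% and 12.9%) lie inside these intervals. Each share was below that of the Rab genes, but the intervals overlap and the difference was not tested. Effectors had 2, 11 and 11 of 42 genes (4.76%, 26.2% and 26.2%). Bicd2, a dynein adaptor that binds Rab6, and Rab11fip5, which binds Rab11, had CREB at every stage. Appl1 of Rab5 endosomes, Ehbp1, and the golgins Golga2 and Golga5 had it at E16.5 and E18.5. Genes of the GAP list, whose members were not each checked for GAP activity, had CREB at 3, 6 and 6 of 37 (8.11%, 16.2% and 16.2%). Among them were Tbc1d10b, Tbc1d17 and Tbc1d23 at every stage, Evi5l and Tbc1d15 at both later stages and Tbc1d10a at E18.5.

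GEF genes had CREB at none, 4 and 3 of 31 members over the stages. The later shares were 12.9% and 9.68%, against 14.9% and 12.9% of all protein-coding genes. Hps1, part of the exchange factor for Rab32 and Rab38, and Mon1b, part of that for Rab7, had it at both later stages. Hps4, the partner of Hps1, and Rabgef1, an exchange factor for Rab5, had it at E16.5 alone. Of 8 genes for GDI, Rab escort and prenylation, Rabac1 had CREB at both later stages. The related Arf and Arl family of GTPases, which also serves membrane traffic, had CREB at 1, 9 and 8 of 26 genes (3.85%, 34.6% and 30.8%).

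**Figure D5:**
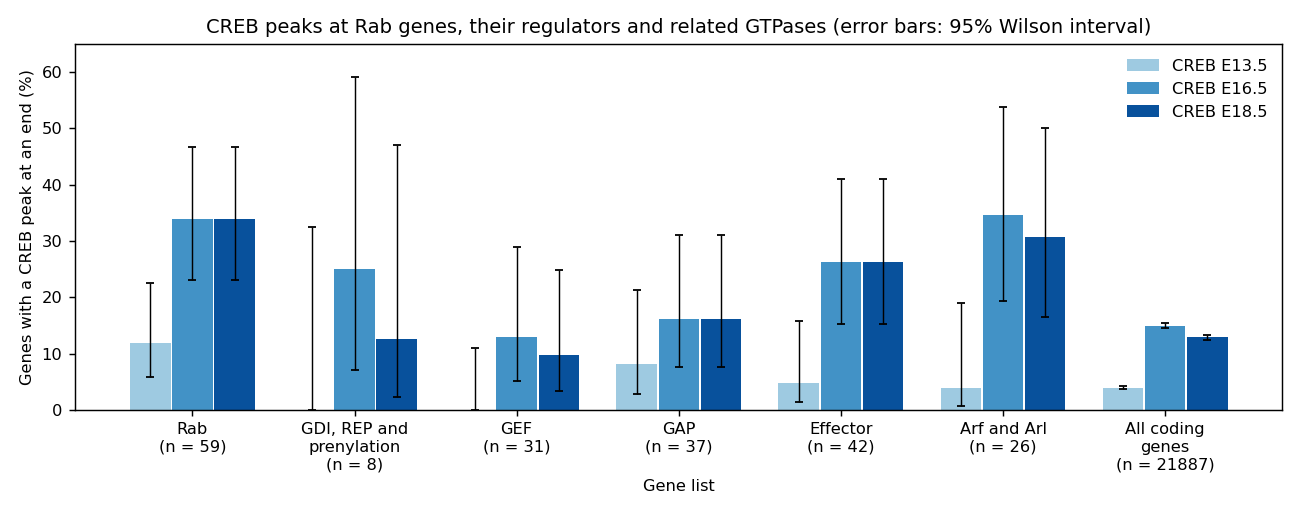
Share of genes with a CREB peak at an end (vertical axis, percent) in Rab genes, the 4 lists of their regulators and effectors, the Arf and Arl family and all protein-coding genes, with bars darker by stage. Error bars are 95% Wilson intervals, and n is the number of genes. Rab genes reached 33.9% at both later stages and Arf and Arl genes 34.6% and 30.8%, against 14.9% and 12.9% of all genes.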

How the data were processed

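Peak lists were made by the authors and deposited as positions (chromosome, start and end) in mm10, with no score or read count. Per the submitters' processing notes, Trim Galore 0.6.10, Bowtie2 2.5.2 and MACS2 were used; calling settings, and the use of the IgG library as background, were not given in the sources used here. The labels' protocols give a 70 µm filter and 100000 cells per assay. Since widths are nearly constant, they carry no information on a site, and the wide E16.5 intervals (630 bp) can reach a gene end or a neighbouring peak that a narrow one would miss. With all peaks set to 150 bp, CREB at E16.5 was at 20 of 59 Rab genes and 14.6% of all protein-coding genes. At that width 18 of the 20 E16.5 peaks at Rab genes overlapped an E18.5 peak.

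From these lists, Rab genes with a peak at an end were counted here with Python 3.11.15, numpy 2.4.6, pandas 2.3.3, scipy 1.17.1 and matplotlib 3.10.9. Only assembled chromosomes were used, positions are 1-based, overlap needed 1 bp, and distances run from peak midpoints. Strand, starts and promoter sequence came from RefSeq (GRCm38.p6). Protein identity between relatives was planned and was not run here. Gene-end and motif searches were tested on simulated data. Members, lists and steps were chosen with earlier results of these data known. Named are all Rab genes, up to 6 genes of each regulator list by number of stages and then symbol, and promoters of Rab genes with CREB at every stage and a CRE core; some items that this rule names are not reported here.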

Additional observations from a re-analysis of the deposited data

How the results depend on the processing

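Of 45 recomputed counts, 41 stayed within 1.5 times the reported count, though not all had room to move further. These covered gene ends of 500 and 2500 bp, a common width of 150 bp, midpoints in place of overlap, gene starts only, and leaving out Rab26, which was chosen after seeing the data. Leaving out Rab26 could only lower each count by 1, and 859 of the 862 E13.5 peaks were 150 bp wide already. Keeping only genes with H3K4, left out of the 45, could not change the Rab counts, since all 21 Rab genes with CREB have H3K4. It lowered the ratio of the Rab share to that of all genes, a comparison also added after seeing the data, to 1.87 at E13.5 (3.02 over all genes), 1.43 at E16.5 (2.27) and 1.64 at E18.5 (2.63). With the later lists shortened to the length of the earliest, 8 Rab genes had CREB at E16.5 and 11 at E18.5, by construction of a shorter list, and all genes fell to 4.36% and 4.29%. A reciprocal overlap of 50% left 0 of 20 and 0 of 21 gene-end peaks shared between E16.5 and E18.5, since a 160 bp peak cannot cover that part of a 630 bp peak; midpoints within 200 bp gave 18 and 18. With gene starts only, 6, 19 and 18 of 48 Rab genes had CREB, and Rab21 joined at E16.5. The lists hold no score, so a stricter threshold was not run. Depth is unknown, which limits what a missing peak shows. No paired analysis was possible because each group holds 1 library.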
